A study of Mus musculus with 9 samples.

Results

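Transcript levels of 9 lysosomal proteases and 1 secreted protease inhibitor were followed through 3 cell populations of the mouse olfactory epithelium. The genes were taken from a fixed list of symbols, 10 of the 21909 in the deposited tables: the cathepsin genes Ctsa, Ctsb, Ctsc, Ctsd, Ctsh, Ctsl, Ctss and Ctsz, the legumain gene Lgmn, and Cst3, which encodes cystatin C. All mice were 4 weeks old and the tissue was the main olfactory epithelium. The horizontal basal cell library (HBC) came from cells stained with a phycoerythrin-coupled antibody to CD54, the product of Icam1, with no reporter allele named. The globose basal cell library (GBC) came from cells positive for Neurog1-EGFP, a reporter of a proneural factor. The mature olfactory sensory neuron library (mOSN) came from cells positive for OMP-ires-EGFP, a reporter of the olfactory marker protein gene. The sources used here give neither strain, sex nor the number of animals behind a library. Each population had 1 poly-A RNA library, so differences are unreplicated throughout and carry no p-value. HBC was prepared with ScriptSeq and the other libraries with Illumina's mRNA kit. Kit and population cannot be told apart in any comparison with HBC. A further 6 samples of the series (3 for 5-hydroxymethylcytosine, 3 for 5-methylcytosine) were not analysed here.

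Lysosomal proteases are made as inactive precursors, routed to the lysosome largely by mannose 6-phosphate receptors, and activated at acid pH. Most cathepsins are cysteine proteases of the papain family. Ctsd is an aspartic protease and Ctsa a serine carboxypeptidase. Legumain is a cysteine protease that cuts after asparagine and also processes some cathepsins. All cells use such enzymes to turn over proteins, while macrophages and other antigen-presenting cells are known for high levels, with cathepsin S trimming the invariant chain of MHC class II. Cystatin C is secreted and inhibits papain-family cathepsins and, at a separate site, legumain.

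Values are FPKM, which divides a gene's fragments by transcript length and by library depth, so levels of different genes may be compared within a library. The interval after a value is the deposited one and covers counting error only. Each interval also implies the number of fragments behind its value, and these summed to 18123310 in HBC, against 18086991 in GBC, with 16515790 in mOSN. The sort genes were highest where the label calls for them: Icam1 had 136 FPKM in HBC and 0.0456 in GBC, Neurog1 163 FPKM in GBC and 0.0538 in HBC, and Omp 1487 FPKM in mOSN and 427 in GBC. The HBC library held basal cell markers (10 of 10 at 1 FPKM or more, summed 1522 FPKM) together with genes of other cell types. All 20 macrophage markers were above 13 FPKM there and summed to 3020 FPKM, against 6.51 in GBC and 4.69 in mOSN. Sustentacular cell markers, from the supporting cells, summed to 1847 FPKM in HBC, against 40.1 in GBC, with 149 in mOSN. Bowman gland markers summed to 1140 FPKM in HBC, neutrophil markers to 184, fibroblast markers to 148, lymphocyte markers to 111 and endothelial markers to 12.3, against at most 21.9 for any of these 5 lists in the other libraries. All 11 mature neuron markers were also at 1 FPKM or more in HBC, summed 157 FPKM, with Omp at 71.6 FPKM. Their sums were 1337 FPKM in GBC and 10390 in mOSN. What part these cells have in any HBC value below was not tested.

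Upstream sequence is shown for 4 of the genes as examples of windows that hold the motifs described: Ctsa and Ctsd were present in every library, and Ctss and Ctsc lay under 1 FPKM in both GBC and mOSN. The motifs and the 4 windows were chosen after 10 motifs had been searched in the sequences, so the matches are examples and support nothing. Windows from 250 bases before to 50 after a RefSeq start (build GRCm38.p6) were found for 8 of the 10 genes, 10 windows in all, and not for Ctsb and Ctsh. Capitals mark CACGTG, the core of the E-box bound by TFEB-family factors that drive lysosomal genes, and GAGGAA or its reverse complement TTCCTC, the core bound by the myeloid factor PU.1. The stretches end at the base before the start and run 5′ to 3′ on the gene's strand. They lie at chr2:164833623-164833772, plus strand (Ctsa), chr7:142387828-142388077, minus strand (Ctsd), chr3:95526586-95526785, plus strand (Ctss), and chr7:88277885-88278084, plus strand (Ctsc).
Ctsa: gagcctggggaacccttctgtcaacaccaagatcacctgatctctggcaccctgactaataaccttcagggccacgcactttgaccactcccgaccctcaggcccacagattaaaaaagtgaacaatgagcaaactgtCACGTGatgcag
Ctsd: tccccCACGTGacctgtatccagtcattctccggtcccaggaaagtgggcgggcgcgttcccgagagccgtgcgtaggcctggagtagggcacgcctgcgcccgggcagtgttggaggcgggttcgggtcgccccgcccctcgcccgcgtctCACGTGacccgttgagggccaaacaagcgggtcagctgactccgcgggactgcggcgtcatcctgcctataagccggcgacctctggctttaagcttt
Ctss: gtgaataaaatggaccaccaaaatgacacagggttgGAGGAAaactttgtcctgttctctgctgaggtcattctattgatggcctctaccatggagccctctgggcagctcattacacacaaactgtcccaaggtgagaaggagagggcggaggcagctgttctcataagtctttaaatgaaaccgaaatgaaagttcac
Ctsc: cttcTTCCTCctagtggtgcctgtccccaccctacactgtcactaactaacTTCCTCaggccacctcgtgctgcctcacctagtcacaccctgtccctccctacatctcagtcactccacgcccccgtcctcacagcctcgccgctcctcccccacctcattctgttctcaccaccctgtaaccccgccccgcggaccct

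CACGTG stood 12 bases before 1 of the 2 Ctsa starts, with a second match at base 6 after that start. The window of the other Ctsa start, not shown, held none. CACGTG also stood 245 and 98 bases before the Ctsd start. It also stood 236 bases before the Ctsl start and 49 bases before 1 of the 2 Lgmn starts. In all, 4 of the 10 windows held it, against 7.15% of 32851 windows of all genes. With a flanking base, as TCACGTG or CACGTGA, it was in 3 of the 10 windows (Ctsa, Ctsd and Lgmn) and in 3.77% of all windows. GAGGAA or TTCCTC was in 3 of the 10 windows (Ctss, Ctsc and Cst3) and in 28.3% of all windows, so it is a common hexamer. The other 7 motifs were CATGTG (3 of 10 windows, 14.2% of all), TCATGTGA (1 of 10, 0.986%), GGAAGT (3 of 10, 23.8%), GGCGGG (5 of 10, 35.3%), GGGCGG (6 of 10, 35.7%), TGAGTCA (0 of 10, 5.20%) and TATAAA (2 of 10, 13.6%), each with its reverse complement. GGCGGG and GGGCGG can overlap, and each TCATGTGA holds a CATGTG. Both strands were searched, a match is a description of letters and not of binding, and every TCACGTG or CACGTGA match holds a CACGTG.

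Every gene of the group had its highest level in HBC. The endopeptidase gene Ctss (chromosome 3, 95330708 to 95360325, mm9) had 638 FPKM there (interval 631 to 644), 0.534 in GBC (0.275 to 0.793) and 0.197 in mOSN (0.0361 to 0.357). It ranked at place 16 of all symbols in HBC, while its GBC and mOSN values rested on 17 and 6 fragments. Ctss was thus the most abundant of the 10 genes in 1 library and among the 3 least abundant in the others. Ctsk, a collagen-degrading cathepsin gene, lies 17423 bases from Ctss on the same chromosome and had only 6.41 FPKM in HBC.

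The exopeptidase genes Ctsc and Ctsh were also under 1 FPKM in GBC and mOSN, with lower levels in HBC than Ctss. Ctsc (chromosome 7, 95426603 to 95459385), the dipeptidyl peptidase that activates granule serine proteases, measured 65.6 FPKM (64.2 to 67.0) in HBC, with 0.0189 (0 to 0.0567) in GBC, then 0.243 (0.103 to 0.383) in mOSN. Its GBC value came from 1 fragment and its mOSN value from 12, and these intervals did not overlap. Ctsh (chromosome 9, 89949105 to 89970933), an aminopeptidase, measured 46.7 FPKM (45.0 to 48.4) in HBC, with 0.177 (0.0652 to 0.290) in GBC, then 0.193 (0.0566 to 0.330) in mOSN. The GBC and mOSN intervals of Ctsh overlapped, and both values rested on 10 fragments or fewer.

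Among genes above 1 FPKM in both GBC and mOSN, Ctsz was the only one lower in mOSN with intervals that did not overlap. This carboxypeptidase gene (chromosome 2, 174252995 to 174264493) measured 162 FPKM (158 to 165) in HBC, with 11.7 (10.9 to 12.6) in GBC, then 2.26 (1.77 to 2.74) in mOSN. GBC was 5.20-fold above mOSN (95% interval 4.16 to 6.57 from the fragment counts). The endopeptidase gene Ctsl (chromosome 13, 64464522 to 64471614) measured 97.3 FPKM (95.4 to 99.2) in HBC, with 9.61 (8.71 to 10.5) in GBC, then 8.56 (7.65 to 9.47) in mOSN. Its GBC and mOSN intervals overlapped, and mOSN stood at 0.890 of GBC (0.772 to 1.03).

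Ctsb, Lgmn, Ctsa and Ctsd, which exceeded 5 FPKM in every library, had their lowest level in GBC. Ctsb (chromosome 14, 63741302 to 63764758), an endopeptidase that also trims dipeptides, measured 199.7 FPKM (198 to 202) in HBC, with 31.7 (30.7 to 32.8) in GBC, then 101 (99.1 to 103) in mOSN. By deposited FPKM it was the most abundant of the 10 genes in GBC and in mOSN. With 1 conversion from fragments to FPKM per gene in all libraries, Cst3 (33.0 FPKM) stood above Ctsb (26.8) in GBC. Lgmn (chromosome 12, 103632308 to 103677907) measured 119.9 FPKM (117 to 123) in HBC, with 11.3 (10.5 to 12.1) in GBC, then 54.9 (52.8 to 57.0) in mOSN. Ctsa (chromosome 2, 164658373 to 164666532), whose protein also shields the lysosomal enzymes neuraminidase 1 and beta-galactosidase, measured 63.8 FPKM (62.2 to 65.3) in HBC, with 9.48 (8.97 to 9.99) in GBC, then 33.7 (32.5 to 34.8) in mOSN. Ctsd (chromosome 7, 149561821 to 149573775), the main aspartic protease of the lysosome, measured 369 FPKM (364 to 374) in HBC, with 23.3 (22.1 to 24.5) in GBC, then 46.9 (44.9 to 48.9) in mOSN. For these 4 genes no pair of libraries had overlapping intervals. That is the usual state between mOSN and GBC, where it held for 84.9% of 8588 genes at 5 FPKM in either. No such share was computed for the comparisons with HBC.

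The inhibitor gene Cst3 (chromosome 2, 148697468 to 148701204) measured 468 FPKM (459 to 477) in HBC, with 27.1 (25.2 to 29.1) in GBC, then 29.7 (27.3 to 32.2) in mOSN. The HBC value stood apart and the other intervals overlapped. The ratio of mOSN to GBC was 1.10 (95% interval 0.983 to 1.22), and with 1 conversion from fragments to FPKM per gene in all libraries its log2 turned from 0.13 to -0.34.

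**Figure D1:**
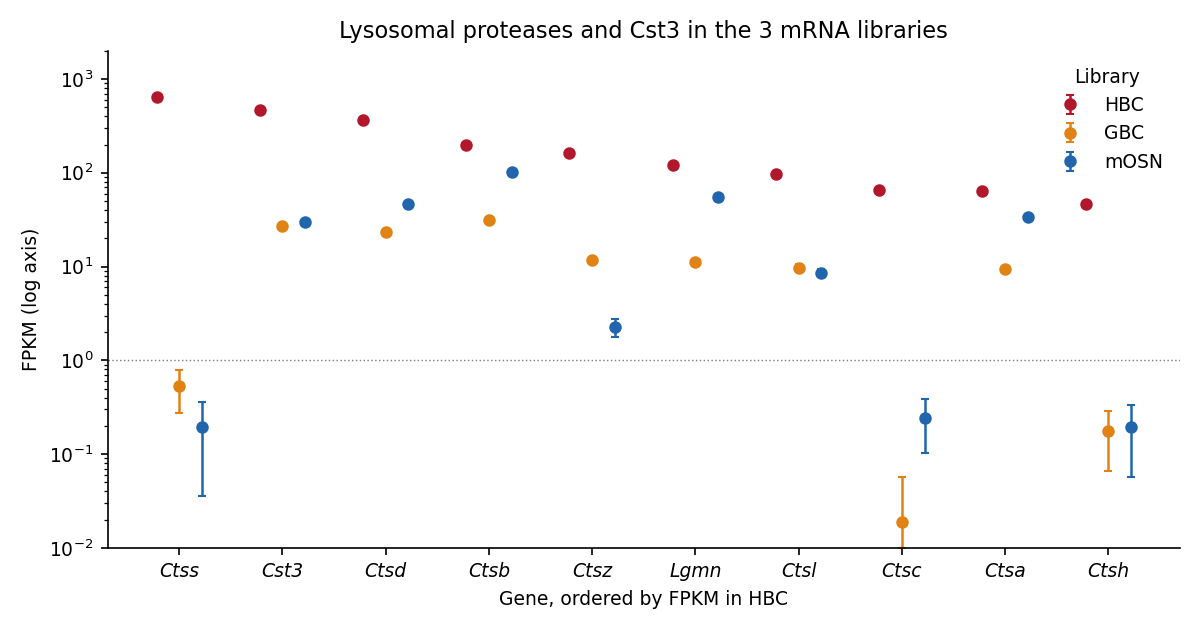
FPKM (log axis) of the 10 genes in HBC, GBC and mOSN, 1 library each, with the deposited intervals as bars and a dotted line at 1 FPKM. HBC is the highest point for every gene, and Ctss, Ctsc and Ctsh lie under 1 FPKM in the other libraries. The interval of Ctsc in GBC reaches 0 and is drawn to the edge of the axis.

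Some loci overlap those of other genes, and whether the counting used strand is a point the sources used here do not give. Ctsa shared 1515 bases with Pltp (47.8 FPKM in HBC, 0.227 in GBC) and 724 bases with Neurl2, which had at most 1.71 FPKM in any library. Ctsb shared 771 bases with Fdft1 (8.68 FPKM in HBC, against 24.6 in GBC, with 18.7 in mOSN). Ctsz shared 9 bases with Th1l. The part of such fragments in the values was not tested.

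Ordered by FPKM, the genes ran Ctss, Cst3, Ctsd, Ctsb, Ctsz, Lgmn, Ctsl, Ctsc, Ctsa and Ctsh in HBC, and only the neighbours Ctsc and Ctsa had overlapping intervals. In GBC the order was Ctsb, Cst3, Ctsd, Ctsz, Lgmn, Ctsl, Ctsa, Ctss, Ctsh and Ctsc. There the run from Ctsz to Ctsa was not separated between neighbours, nor were Ctss and Ctsh. In mOSN it was Ctsb, Lgmn, Ctsd, Ctsa, Cst3, Ctsl, Ctsz, Ctsc, Ctss and Ctsh, with the last 3 not separated. The position of Lgmn thus moved from place 6 in HBC to place 2 in mOSN, and that of Ctss from place 1 to place 9. These orders are of the deposited FPKM and depend on the conversion from fragments. With 1 conversion factor per gene, Cst3 stood above Ctsb in GBC. In HBC, Ctsl (170 FPKM) then stood above Ctsz (147) and Lgmn (132).

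The make-up of the protease transcripts differed between libraries, and such shares do not depend on a scaling applied to a whole library. The 9 proteases summed to 1761 FPKM in HBC, against 97.8 in GBC, with 248 in mOSN. Ctss made up 36.2% of that sum in HBC, 0.545% in GBC and 0.0792% in mOSN. Ctsb made up 11.3%, 32.4% and 40.8%, and Lgmn 6.81%, 11.5% and 22.1%. Ctsd held 20.9%, 23.8% and 18.9%, the narrowest range among the 4 proteases of highest share in mOSN. Together Ctsa, Ctsb, Ctsd and Lgmn, a grouping chosen after the values were seen, were 42.7% of the sum in HBC, 77.4% in GBC and 95.4% in mOSN.

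**Figure D2:**
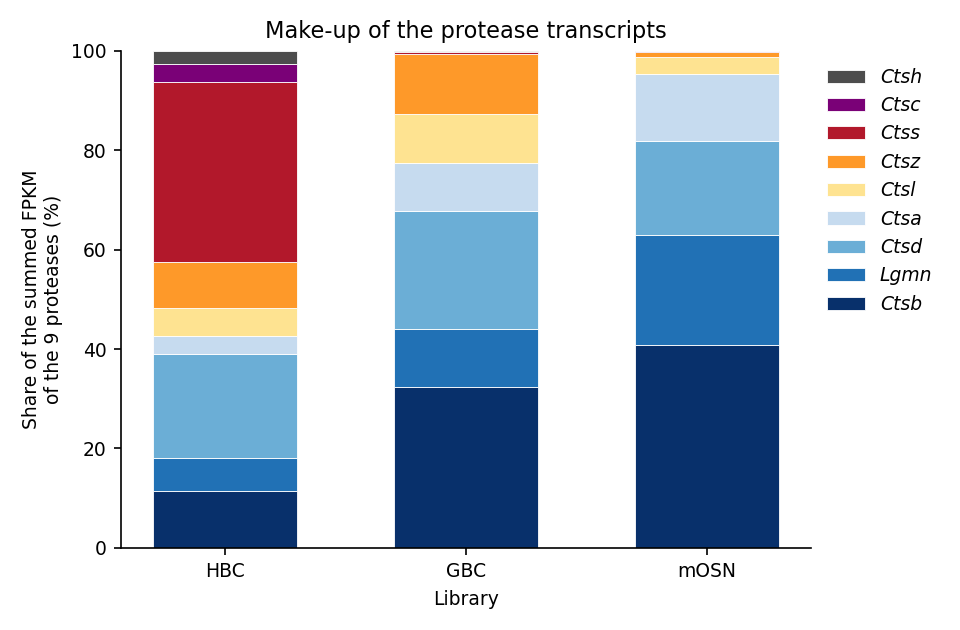
Share in percent of each protease in the summed FPKM of the 9 proteases, 1 bar per library. Ctss is 36.2% of HBC and a sliver elsewhere, and Ctsb, Lgmn, Ctsd and Ctsa fill 95.4% of mOSN.

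Cst3 was set against the 7 cysteine protease genes its product can inhibit, Ctsb, Ctsc, Ctsh, Ctsl, Ctss, Ctsz and Lgmn. The ratio of Cst3 FPKM to their summed FPKM was 0.352 in HBC, against 0.417 in GBC, with 0.178 in mOSN. With 1 conversion factor per gene it was 0.229, 0.533 and 0.186. The place of GBC as the highest of the 3 held in both, and the difference between HBC and mOSN was smaller in the second. Against Ctsb alone, Cst3 stood at 2.34 in HBC, against 0.856 in GBC, with 0.294 in mOSN. With 1 conversion factor per gene these ratios were 1.54, 1.23 and 0.311, so HBC and GBC lay closer together.

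Calls required a difference of 2 or more on the scale log2(FPKM + 1), that is 4-fold, and 5 FPKM or more on the higher side. This scale understates the difference of low genes. Counts for the gene lists below are over list genes measured at 1 FPKM in either library. The shares beside them are over all genes at the 5 FPKM floor. Between GBC and HBC, all 10 genes were called higher in HBC, where 16.5% of 9101 genes reaching 5 FPKM in either library were, and 15.5% were called higher in GBC. Ctss, Ctsc and Ctsh passed the 5 FPKM floor only through HBC, so their calls follow in part from the floor. The log2 ratio of GBC over HBC ran from -8.70 (Ctss) to -2.62 (Ctsb), with a median of -3.80 over the 10 genes and 0.46 over all 13736 genes measured at 1 FPKM in either library. On the plain FPKM scale HBC was 15.8-fold above GBC for Ctsd (95% interval 15.0 to 16.7), 17.2-fold for Cst3 (16.1 to 18.5) and 6.30-fold for Ctsb (6.09 to 6.52). With 1 conversion factor per gene, the log2 ratio of GBC over HBC for Ctsb went from -2.62 to -3.38. That of Ctsd went from -3.93 to -3.97 and that of Cst3 from -4.06 to -3.71. The fold intervals do not cover that conversion. Fewer cells of a type and less RNA per cell cannot be told apart in such bulk libraries. The macrophage, sustentacular and gland markers given above were high in the same library, as was the kit that differed, and their part in these differences was not tested.

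Macrophage markers were at or near 0 in GBC and mOSN. In GBC 2 of 20 reached 1 FPKM and in mOSN 1 of 20. Csf1r, the receptor of macrophage growth factor, measured 202 FPKM in HBC, with 0.195 in GBC, then 0.137 in mOSN, C1qa 283, 0.211 and 0.0307, and Lyz2 573, 1.93 and 1.31. Ms4a7 was listed at 0 in both GBC and mOSN, and Aif1 and Trem2 in mOSN. In the same 2 libraries 7 of the 10 genes were above 1 FPKM, and Ctss, Ctsc and Ctsh were not. Of all 21909 symbols, 11395 reached 1 FPKM in GBC and 11547 in mOSN. Which cells of these libraries held the 7 transcripts was not tested.

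The mOSN and GBC libraries shared a kit. Of the 7 genes at 5 FPKM in either, Lgmn was called higher in mOSN with a log2 ratio of 2.18, where 7.12% of 8678 genes were called in that direction, and none was called higher in GBC, where 3.16% were. Ctsz lay just inside the threshold at -1.97. At a 2-fold threshold, Lgmn, Ctsa (1.73) and Ctsb (1.64) were higher in mOSN and Ctsz higher in GBC, against 25.2% and 9.23% of genes, while Ctsd was just short at 0.98. On the plain scale mOSN stood 4.86-fold above GBC for Lgmn (95% interval 4.48 to 5.27), 3.55-fold for Ctsa (3.34 to 3.79), 3.19-fold for Ctsb (3.07 to 3.31) and 2.01-fold for Ctsd (1.89 to 2.15). Among the 7 genes at 5 FPKM in either, the intervals of Ctsl and Cst3 overlapped and those of the others did not. Of all 8588 genes at that floor with 1 row and status OK, 84.9% had intervals that did not overlap. Below the floor, the intervals of Ctsh and Ctss overlapped and those of Ctsc did not. The median over the 10 genes was 0.21, and over the 7 of them measured at 1 FPKM in either library it was 0.98. Over all 12551 genes so measured it was 0.24. Sustentacular markers were higher in the same library, with 9 of 9 at 1 FPKM in mOSN (1.17 to 46.4 FPKM) and 5 of 9 in GBC (0.206 to 21.2 FPKM over the list), and their part in the difference was not tested. The GBC library also held all 11 mature neuron markers at 1 FPKM or more, summed 1337 FPKM against 10390 in mOSN, beside 919.5 FPKM of its own precursor markers. The part of such neuronal transcripts in the difference was not tested.

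The call on Lgmn rests on the scale. Its log2 ratio ran from 1.87 to 2.27 over the alternatives and was 1.87 with 1 conversion factor per gene, where Ctsz stood at -2.45. With that factor the log2 ratios of Ctsa, Ctsb and Ctsd were 1.33, 1.59 and 0.76. The signs of the mOSN to GBC ratio of Lgmn, Ctsa, Ctsb, Ctsd and Ctsz held under every alternative tried.

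Between mOSN and HBC, 7 of the 10 genes were called higher in HBC, against 15.8% of 9779 genes, and none in mOSN, against 24.0%. Of the 7, Ctss, Ctsc, Ctsh and Ctsz passed the 5 FPKM floor only through HBC, so those 4 calls follow in part from the floor. The exceptions were Ctsa, Ctsb and Lgmn, with log2 ratios of -0.90, -0.97 and -1.11. HBC was 1.89-fold above mOSN for Ctsa (95% interval 1.82 to 1.98), 1.97-fold for Ctsb (1.93 to 2.02) and 2.18-fold for Lgmn (2.09 to 2.28). Ctsd was 7.86-fold above (7.53 to 8.21) and Cst3 15.7-fold (14.5 to 17.1). With 1 conversion factor per gene the log2 ratios were -0.90 for Ctsa, -1.78 for Ctsb and -1.48 for Lgmn. Ctsd and Cst3 then stood at -3.21 and -4.06. The fold intervals above cover counting error only and not that conversion. The median over the 10 genes was -3.65, with 0.63 over 14092 measured genes. The 3 comparisons share libraries, so they are not independent of each other.

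**Figure D3:**
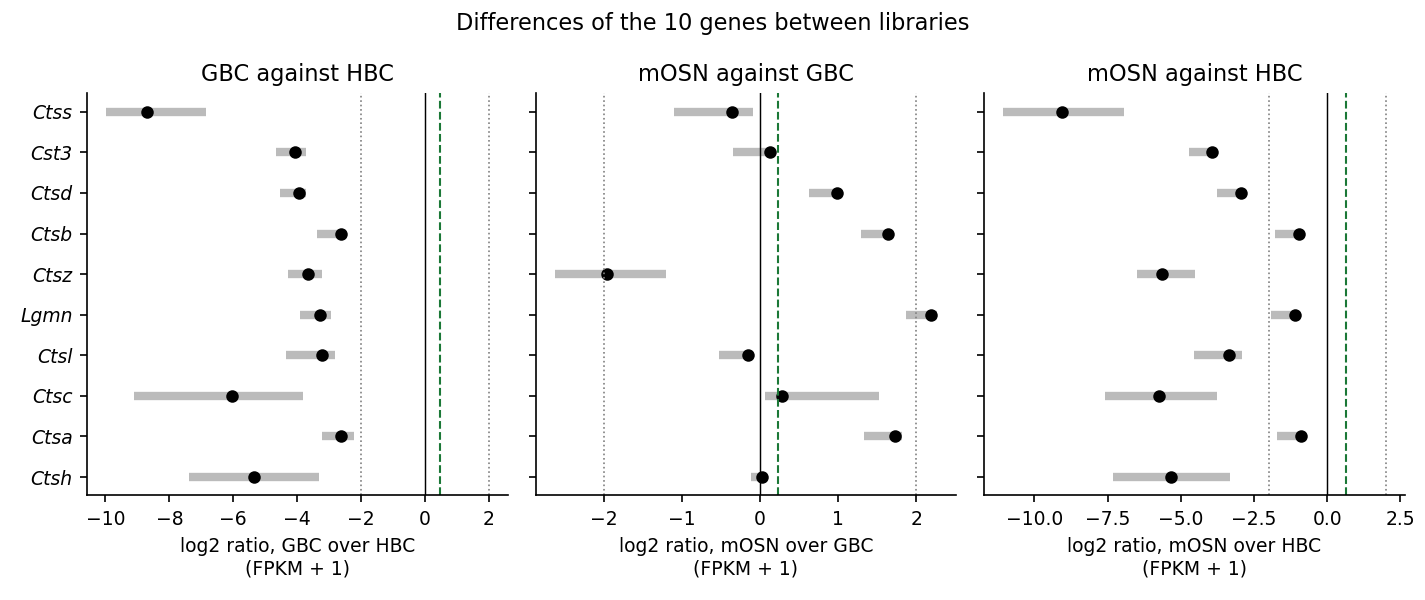
Log2 ratio of (FPKM + 1) of each gene in the 3 comparisons, black points as reported, grey bars the range over the alternative settings, dotted lines the 4-fold threshold, and a dashed green line the median of all measured genes. All points are beyond the threshold towards HBC in the first panel, Lgmn alone is beyond it in the second, and Ctsa, Ctsb and Lgmn are within it in the third.

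Other cathepsins were mostly scarce. Of 15 further cathepsin genes, 7 reached 1 FPKM in HBC, against 1 in GBC, with 2 in mOSN, and the placental cathepsins Cts3, Cts6, Cts7, Ctsm, Ctsq and Ctsr were listed at 0 in every library, while Cts8 and Ctsj stayed under 0.1 FPKM. Ctsf, a lysosomal cysteine protease, measured 9.66 FPKM (8.86 to 10.5) in HBC, with 7.84 (7.22 to 8.47) in GBC, then 13.5 (12.4 to 14.5) in mOSN, the only one of them at 5 FPKM in all libraries. Napsa, an aspartic protease, had 21.8, 0.416 and 0.128 FPKM, and Ctsw, known from cytotoxic lymphocytes, 7.66, 0.164 and 0.0607. Ctsk had 6.41, 0.253 and 0.343 FPKM, Ctso 5.52, 0.556 and 1.01, Ctse 3.42, 0.286 and 0.133, and Ctsg, a neutrophil granule protease, 1.13, 0 and 0.110. Between GBC and HBC 4 of 7 measured were called higher in HBC (Napsa, Ctsw, Ctsk and Ctso) and none in GBC, where 16.5% and 15.5% of all genes at the floor were. All 4 passed the floor only through HBC. The median log2 ratio of the 7 was -2.07, which became -3.62 with a pseudocount of 0.1 FPKM and -0.92 with 5.

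Of 5 other lysosomal peptidases, 1 was called higher in HBC than in GBC (median -1.69), against 16.5% of all genes at the floor. Higher in HBC than in mOSN were 3 (median -2.08), against 15.8%. All of these calls passed the floor only through HBC. Tpp1, a tripeptidyl peptidase, measured 16.4 FPKM (15.7 to 17.0) in HBC, with 9.11 (8.49 to 9.74) in GBC, then 13.3 (12.4 to 14.1) in mOSN. The carboxypeptidase gene Scpep1 measured 30.8 FPKM in HBC, with 8.37 in GBC, then 1.42 in mOSN, a descending order like that of Ctsz. The other 3 are named for completeness after their values were seen. Cpq (listed as Pgcp), the one called between GBC and HBC, had 9.27, 0.129 and 0.379 FPKM, Prcp 17.2, 4.63 and 3.30, and Dpp7 4.96, 4.57 and 4.25. Among 13 other cystatin and stefin genes, Cstb, an intracellular inhibitor of cathepsins, measured 23.9 FPKM (21.9 to 26.0) in HBC, with 10.4 (9.08 to 11.7) in GBC, then 21.3 (18.9 to 23.6) in mOSN. Its HBC and mOSN intervals overlapped, unlike those of Cst3. HBC held 5.14 FPKM of Cst7, GBC 0.0425, and mOSN listed it at 0. Stfa2 reached 1.85 FPKM in HBC, with 0.222 in mOSN and a listed 0 in GBC. The other 10 stayed under 1 FPKM in every library.

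The partners of the Ctsa protein did not share its pattern. Neu1, the neuraminidase, measured 5.30 FPKM (4.94 to 5.66) in HBC, with 9.49 (9.02 to 9.96) in GBC, then 18.3 (17.5 to 19.1) in mOSN, so its ratio to Ctsa was 0.0831, 1.001 and 0.544. Glb1, the beta-galactosidase gene, had 5.90, 2.07 and 1.59 FPKM. Grn, whose product progranulin is processed by lysosomal proteases, had 117, 14.6 and 7.86 FPKM, and Npc2, a cholesterol carrier gene, 44.9, 9.25 and 3.80. For Psap, the saposin precursor gene, HBC held 550.4 FPKM and mOSN 535, and the 255 of GBC carried the status FAIL, with an interval of 0 to 300 FPKM.

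Soluble hydrolases and activators as a list had a negative median between GBC and HBC, as the 10 genes did. Of 37 measured, 15 were called higher in HBC and none in GBC, against 16.5% and 15.5% of all genes at the floor, with a median log2 ratio of -1.78. Of the 15, 10 passed the floor only through HBC. Between mOSN and GBC the median was 0.66 and 1 gene was called, higher in GBC: Dnase2a, an acid nuclease gene named after its values were seen, with 14.9 FPKM in GBC and 0.0455 in mOSN. Of 16 lysosomal membrane genes, 6 were called higher in HBC than in GBC and none lower (median -0.86), against the same shares of all genes at the floor. Of the 6, 3 passed the floor only through HBC. Lamp1, a major glycoprotein of the lysosomal membrane, measured 145 FPKM in HBC, with 47.4 in GBC, then 173 in mOSN, and Lamp2 82.6, 10.6 and 34.3, so that both were lowest in GBC like Ctsb and Ctsa. Cd63 had 23.9, 2.76 and 1.05 FPKM, and Cd68, a macrophage lysosomal protein gene, 92.5, 0.222 and 0.605.

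V-ATPase subunits, the proton pump of the lysosome and of synaptic vesicles, had a median log2 ratio of 0.26 between GBC and HBC, with 2 of 21 called higher in GBC (Atp6v0e2 and Atp6v1g1) and 3 in HBC (Atp6v1b1, Atp6v1c2 and Tcirg1), the 5 being named because they were called. These counts are close to the 15.5% and 16.5% of all genes at the 5 FPKM floor, though the 21 are counted from 1 FPKM. The 3 called higher in HBC passed the floor only through HBC. That median turned to -0.35 with median-of-ratios scaling and to -0.12 with 1 conversion factor per gene. Atp6v1a measured 20.7 FPKM in HBC, with 30.9 in GBC, then 83.0 in mOSN, and Atp6v0c 8.59, 11.1 and 15.8. Atp6v0d2, a subunit known from osteoclasts and macrophages, had under 1 FPKM in every library. Sorting genes had a median of 0.17 between GBC and HBC, which was -0.40 with median-of-ratios scaling. Nagpa and Sorl1 were the 2 of 10 called, both higher in HBC, a count close to the share over all genes at the floor. Nagpa, with 0.968 FPKM in GBC, passed the floor only through HBC. The mannose 6-phosphate receptor gene M6pr had 55.2, 15.0 and 37.7 FPKM, lowest in GBC, and the other receptor gene Igf2r 12.8, 2.82 and 2.98. Gnptab, whose enzyme makes the mannose 6-phosphate tag, had 9.46, 11.8 and 8.86 FPKM, and Sort1, a sorting receptor that does not use that tag, 11.6, 24.1 and 38.4.

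The transcription factors of the lysosomal E-box were modest in level. Tfe3 (listed as Tcfe3) measured 14.1 FPKM (13.4 to 14.9) in HBC, with 6.18 (5.78 to 6.58) in GBC, then 6.74 (6.19 to 7.28) in mOSN. Tfeb (listed as Tcfeb) had 6.93, 1.14 and 0.409 FPKM, and Mitf 3.15, 2.23 and 2.65. None of these 3 was called in any comparison except Tfeb, higher in HBC than in mOSN with a log2 ratio of -2.49. Tfeb passed the floor only through HBC. Mcoln1, the lysosomal calcium channel gene, had 8.47, 12.8 and 19.5 FPKM. The GBC and mOSN intervals of Tfe3 overlapped.

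**Figure D4:**
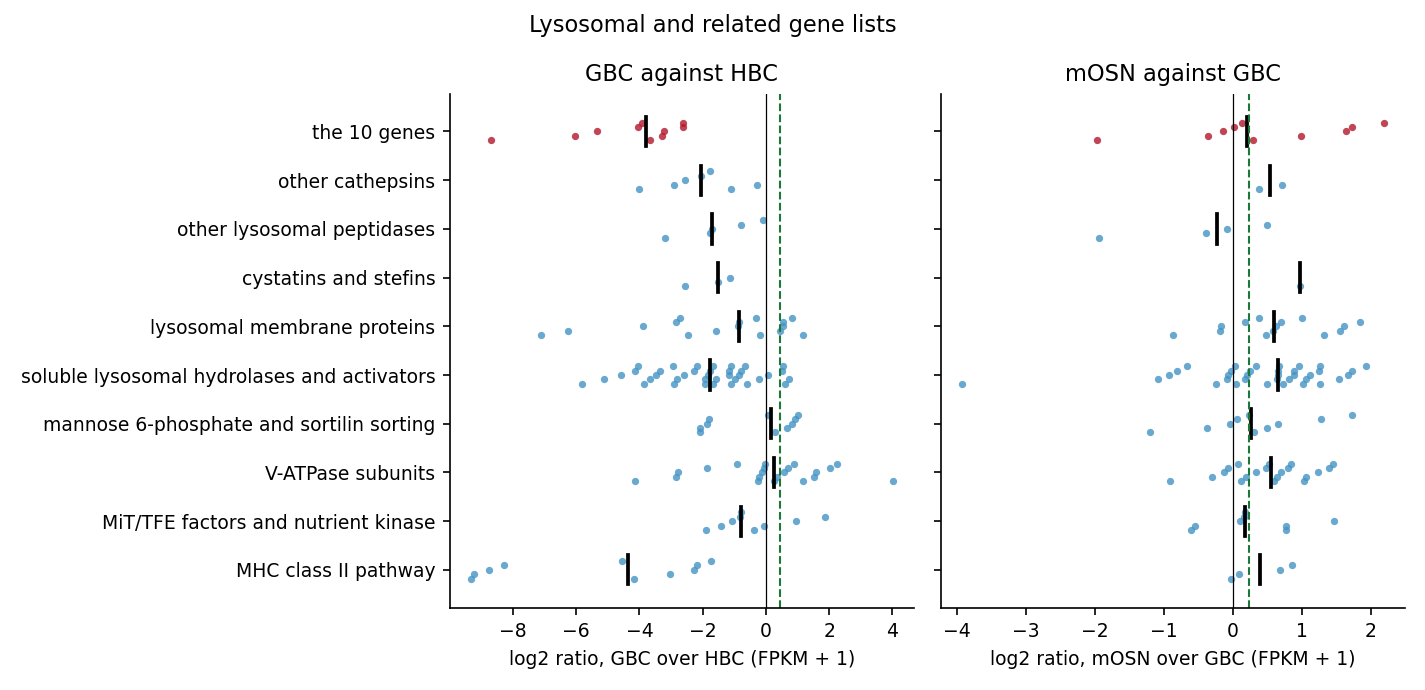
Log2 ratio of (FPKM + 1) for each gene of the lysosomal lists, GBC over HBC on the left and mOSN over GBC on the right, with black bars at list medians and a dashed green line at the median of all measured genes. Lists other than the 10 genes show members measured at 1 FPKM in either library. On the left the 10 genes and the MHC class II pathway lie farthest towards HBC, and V-ATPase subunits centre near the dashed line.

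Of 10 MHC class II pathway genes, whose invariant chain cathepsin S trims, 7 were called higher in HBC than in GBC, against 16.5% of 9101 genes, with a median of -4.36. All 7 passed the floor only through HBC. Cd74, the invariant chain gene, measured 1228 FPKM in HBC, with 1.03 in GBC, then 0.994 in mOSN, and Ifi30, a thiol reductase of antigen processing, 111, 0.976 and 1.27. Of 8 granule serine proteases, the kind Ctsc activates, HBC held 34.7 FPKM of Gzma and 17.7 of Gzmb, while GBC held 0.932 of Gzma and listed Gzmb at 0. Elane, from neutrophils, had 4.52, 0.312 and 0.173 FPKM. Prtn3 went the other way with 0.925 FPKM in HBC, 4.84 in GBC (4.21 to 5.46) and 1.42 in mOSN, and so was highest in the library where Ctsc had 1 fragment.

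Genes of like pattern were sought by the distance between log2(FPKM + 1) values in the 3 libraries, each gene centred on its own mean, among 3864 genes with at least 20 FPKM in a library and status OK in all. With 3 libraries many genes lie close, so the names are a description. Nearest to Ctss were H2-Aa (distance 0.36), Cd74 (0.38) and H2-Ab1 (0.44), all of the class II pathway. Nearest to Ctsd were Egr1 (0.04; 432 FPKM in HBC, against 28.3 in GBC, with 57.2 in mOSN), Nfkb1 (0.11) and Ehd4 (0.13). Nearest to Ctsl were Rrbp1 (0.06), Lass2 (0.08) and Ctdsp1 (0.11). Nearest to Cst3 were Tcirg1, a V-ATPase subunit gene (0.08; 37.4, 1.16 and 1.35 FPKM), the leukocyte integrin gene Itgal (0.08) and Swap70 (0.09). Outside the naming rule and chosen after the values were seen, Ctsa and Ctsb were each other's nearest gene, at a distance of 0.06.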

How the data were processed

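Poly-A RNA libraries of HBC, GBC and mOSN, 1 each, were compared, grouped by sample title. The authors deposited, per the file headers, FPKM per gene with interval bounds and a status. Bowtie, TopHat, Cufflinks and mm9 come from the submitters' processing notes. The sources used here give no versions, annotation or options. Rows of 1 symbol were added up (22345 rows, 21909 symbols). All 10 genes had 1 row with status OK in every library. Starts were raised by 1. An interval half-width of 2 FPKM over the square root of n gave the implied fragments n, over rows with status OK. Fold intervals (95%, exact binomial on n) cover counting error only. Ratios used a pseudocount of 1 FPKM. The rule was tested on simulated data with counting noise only. That simulation held no spread between replicates and no difference of kit or conversion, so it cannot speak to these.

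The members and lists were chosen with earlier results of these data known. Of 262 list symbols, 7 were matched through RefSeq synonyms. Named were the 10 genes, the 3 genes of most similar pattern for Ctss, Ctsd, Ctsl and Cst3, every other cathepsin or cystatin at 1 FPKM, and set genes of each list. Promoter windows were searched for 10 motifs on both strands, and those shown were chosen after seeing the matches. Python 3.11.15, pandas 2.3.3 and scipy 1.17.1 were used. Alternatives were pseudocounts of 0.1 and 5 FPKM, no floor, a floor of 20 FPKM, a common sum, median-of-ratios scaling, only the highest row of a symbol, a 2-fold threshold, intervals that must not overlap, rows with status OK only, and 1 conversion factor per gene.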

Additional observations from a re-analysis of the deposited data

How the results depend on the processing

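The count of the 10 genes called between GBC and HBC was 10 in all 11 alternatives, but 6 of these could only return 10. All 10 genes had over 20 FPKM in HBC, 1 row with status OK, and intervals that did not overlap between GBC and HBC. A 2-fold threshold can only keep such calls. Between mOSN and HBC the count was 7 in 10 of the 11 alternatives and 8 at the 2-fold threshold, and the same 6 could not lower it. Between mOSN and GBC the count of 1 became 2 with a pseudocount of 0.1 FPKM (Lgmn and Ctsz), 0 with a pseudocount of 5 FPKM and 4 at the 2-fold threshold. In that comparison the called gene was Ctsz and not Lgmn with a common sum, with median-of-ratios scaling and with 1 conversion factor per gene. Of the 11 alternatives, 6 cannot change the ratio of a single gene of the 10. Under the other 5, 112 of 150 ratios moved beyond their counting interval and 38 stayed within it, and none that was called changed sign. Of 135 list medians under those 5, 42 moved by over 1.5 times. The median of all measured genes between GBC and HBC moved from 0.46 to -0.05 with median-of-ratios scaling and to 0.25 with 1 conversion factor per gene, between mOSN and GBC from 0.24 to 0.08 and -0.05, and between mOSN and HBC from 0.63 to -0.03 and 0.14. A common sum moved the latter 2 to -0.09 and 0.27. A call requires a log2 difference of 2 or more. That the 7 genes called in both comparisons with HBC exceed those shifts thus follows from the rule. With median-of-ratios scaling the mOSN to HBC log2 ratios of the uncalled genes moved from -0.90 to -1.69 (Ctsa), -0.97 to -1.78 (Ctsb) and -1.11 to -1.91 (Lgmn). The cause of the shifts was not tested. Values under 1 FPKM among the 10 genes rested on at most 17 fragments, so the order of Ctss, Ctsc and Ctsh in GBC and mOSN is limited by depth. No paired analysis was possible because each group had 1 library.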
